A study of Mus musculus with 74 samples.

Results

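The genes described here encode subunits of the mitochondrial respiratory chain (complexes I to IV) and of ATP synthase (complex V). A gene was included if its symbol in the platform annotation began with Nduf followed by a, b, c, s or v and a digit, was Sdha, Sdhb, Sdhc or Sdhd, or began with Uqcr, with Cox4 to Cox8, or with Atp5. Cox7a1 and Cox8b, isoforms characteristic of heart, muscle and brown fat, were left out by the rule and are named only for comparison. Of 18193 measured genes, 79 were members: 35 of complex I, 4 of complex II, 8 of complex III, 15 of complex IV and 17 of complex V. Each gene was read from its brightest probe set that carries a single symbol, and 31 of the 79 had 1 such probe set. Ndufa11 and Ndufs6 are not analysed here because their probe sets carry several symbols.

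All mice were male B6C3F1 hybrids, and RNA was measured on 74 Affymetrix arrays, 1 per mouse and tissue. Fenretinide, a synthetic retinoid, was given in the diet at 500 mg/kg, and white adipose tissue was profiled in 3 treated and 3 vehicle mice on day 15 and in 4 and 4 on day 29. Troglitazone, an activator of the nuclear receptor PPARγ, was given orally at 1200 mg/kg, and brown adipose tissue and liver were profiled in 5 treated and 5 vehicle mice per tissue on each day. Elmiron (pentosan polysulfate, a sulfated polysaccharide) was given orally at 1000 mg/kg, and liver was profiled in 5 treated and 5 vehicle mice on each day. The study asked when proliferative or hypoxic changes appear in the tissues where these compounds give rise to hemangiosarcomas, tumours of blood vessel lining cells, and the doses were set above those of the carcinogenicity studies, per the labels. Each compound had its own study and vehicle mice, so compound and study cannot be told apart, and the doses differ.

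The respiratory chain passes electrons from NADH (complex I) and succinate (complex II) through complexes III and IV to oxygen and pumps protons out of the mitochondrial matrix, and ATP synthase uses the returning protons to make ATP. Brown fat is packed with mitochondria, and its uncoupling protein Ucp1 lets protons return without making ATP, which releases heat. Mouse brown fat is also known for holding little ATP synthase for its amount of respiratory chain. Several complex IV subunits come as pairs, with a form made in most tissues and a form known from muscle (Cox6a2), testis (Cox6b2, Cox7b2, Cox8c), lung (Cox4i2) or hypoxic cells (Ndufa4l2, Cox4i2).

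Values are log2 of the deposited intensity, which the authors made with RMA, a standard method that normalizes arrays and combines probes. A difference of 1 log2 unit is therefore a doubling of signal. Levels are given as means ± SD, differences as treated minus vehicle or brown minus the other tissue, with the standard error (SE) of the limma fit, and a gene was called when its Benjamini-Hochberg adjusted p over all 18193 genes was below 0.05. Mean signal placed 70 of the 79 members among the brightest 10% of genes, while Cox7b2, Ndufb4, Cox7c, Cox4i2 and Cox6b2 lay below the median gene. Signals of different probe sets are not compared, since brightness also depends on the probes. In bulk tissue, fewer cells of a type and less RNA per cell cannot be told apart.

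Several libraries stood apart from their group before any comparison. In brown adipose tissue on day 29, troglitazone mouse 95 and vehicle mouse 82 had Ucp1 at 8.10 and 5.91, while Ucp1 lay between 14.91 and 15.11 in the other 18 brown arrays. Their mean level of white and general adipocyte markers was 12.81 and 12.89, above the 10.59 to 11.31 of those 18, and mouse 82 had a hepatocyte marker level of 12.13, above their 7.10 to 9.07. Brown fat markers were thus high on 18 of the 20 arrays labelled brown. In white adipose tissue on day 29, Ucp1 was above 10 in fenretinide mice 91 and 93 (12.82 and 14.66) and in vehicle mice 85 and 86 (13.44 and 11.69), and the hepatocyte marker level reached 11.71 in fenretinide mouse 95 and 10.83 in vehicle mouse 86. Liver arrays had hepatocyte markers at 13.87 to 14.01, and white arrays had adipocyte markers at 12.30 to 13.14. All 3 white adipose arrays of fenretinide mice on day 15 carried epithelial transcripts, with a mean level of 12 epithelial markers of 9.65 to 10.53. In the vehicle mice of that day it was 6.60 to 7.28. Brown vehicle mouse 82 on day 29 also had a high epithelial marker level, 9.22, against 6.32 to 6.68 in the 18 brown arrays with high Ucp1. Counts, medians and leading genes are also given without the brown or white day 29 libraries named here, and other values include every array. The day 15 epithelial signal is given beside the genes it accompanies, its part in them not tested.

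**Figure D1:**
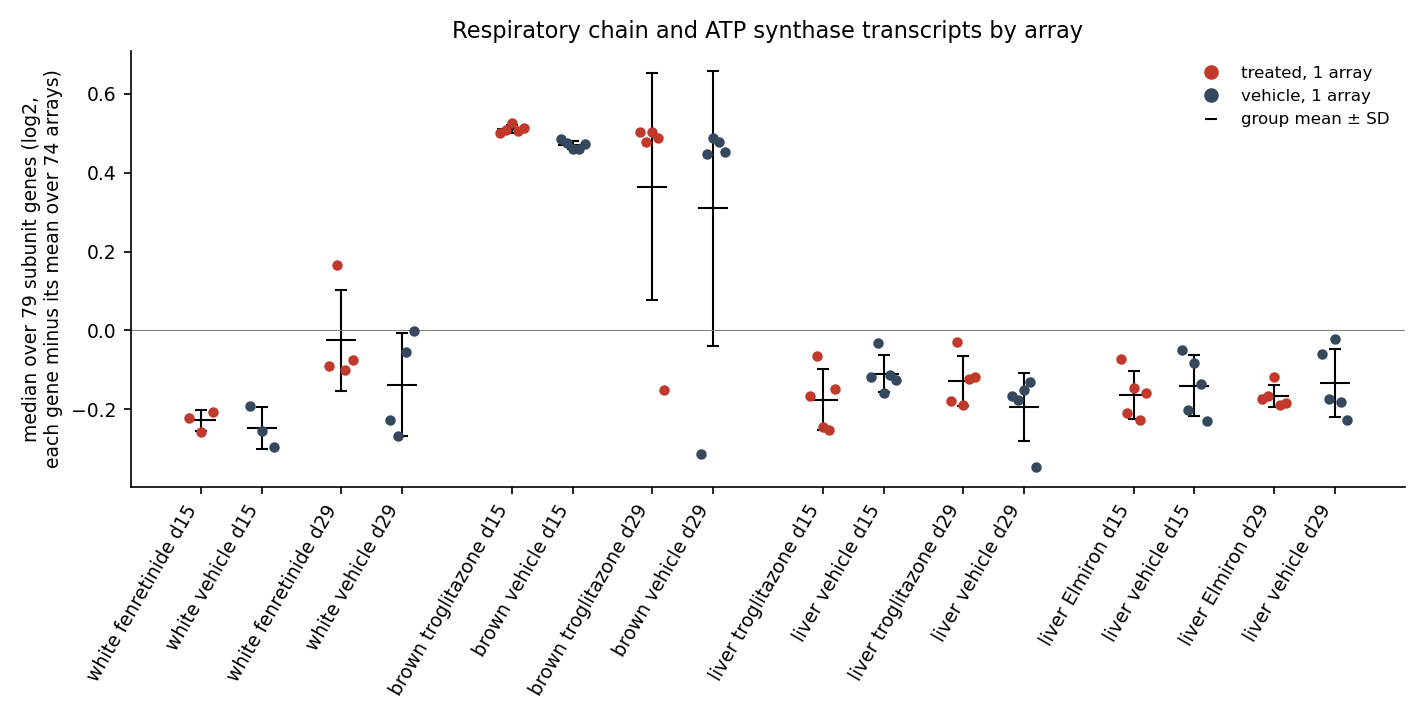
Median of the 79 subunit genes on each of the 74 arrays, in log2 units, after subtracting each gene's mean over all arrays. Points are arrays (red, treated; dark, vehicle) with the group mean ± SD, treated left of vehicle on each day; brown arrays lie between 0.45 and 0.53 except troglitazone mouse 95 (-0.15) and vehicle mouse 82 (-0.31), and all liver arrays lie below 0.

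Across tissues of vehicle mice, brown adipose tissue had the highest signal for most subunits. Relative to liver of the same study, 72 of the 79 members were higher and 6 were lower in brown adipose tissue (31.6% of all genes were called higher and 44.5% lower). The median difference of the members was 0.547, while that of all genes was -0.125. Without mice 82 and 95, 72 members were higher and 4 lower, with a median of 0.613, and the medians of complexes I to V were 0.722, 0.846, 0.727, 0.498 and 0.456. With mouse 82 left out, all brown vehicle arrays lay above all liver vehicle arrays in 66 members and below them in 3 (21.4% and 18% of all genes). With mouse 82 included these counts were 10 and 2 (16.5% and 14.9% of all genes).

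Complex I had 34 of 35 members higher than in liver, 1 lower and a median difference of 0.633. Ndufs1, the large iron-sulfur subunit that carries electrons from the NADH-binding end, ranged from 11.88 (mouse 82) through a median of 13.55 to 13.63 in the 10 brown vehicle arrays, and from 11.37 through 11.63 to 11.81 in the 10 liver vehicle arrays. The lowest brown array alone fell near the liver range, and the other 9 lay between 13.48 and 13.63. Ndufs1 was higher in brown adipose tissue by 1.77 ± 0.16 (limma adjusted p = 1.09e-12), or by 1.93 ± 0.05 without mice 82 and 95. Ndufv1, the NADH-binding subunit, was higher by 0.86, the accessory subunits Ndufb3 and Ndufa10 by 1.21 and 1.17, and Ndufa4l2, a paralog of Ndufa4 known for induction by hypoxia, by 1.0 ± 0.09. Ndufa4 itself, now counted with complex IV, was higher by 0.36. The complex I member called lower was Ndufb1 (-0.18), a small accessory subunit, and it was not called without mice 82 and 95 (-0.14, adjusted p = 0.0691).

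All 4 subunits of complex II and all 8 of complex III were higher in brown adipose tissue than in liver, with medians of 0.745 and 0.632. Sdha, the flavoprotein that oxidises succinate, averaged 14.31 ± 0.32 in brown and 13.17 ± 0.13 in liver vehicle arrays (n = 10 each), a difference of 1.14 ± 0.10, or of 1.24 ± 0.05 without mice 82 and 95. The SD in brown came mainly from mouse 82 at 13.42, and the other 9 arrays lay between 14.33 and 14.46. Sdhb, the iron-sulfur subunit beside it, differed by 0.72. In complex III the core proteins Uqcrc2 and Uqcrc1 were higher by 1.10 and 0.85 and the Rieske iron-sulfur protein Uqcrfs1 by 0.90, whereas the small subunits Uqcrb, Uqcrq and Uqcr11 were higher by 0.23, 0.24 and 0.27.

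Complex IV divided by isoform. Subunits of general use were higher in brown adipose tissue than in liver, Cox4i1 by 0.43, Cox5a by 0.59, Cox6a1 by 0.35, Cox6b1 by 0.51, Cox8a by 0.76, Cox7a2 by 0.27 and Cox7a2l, an assembly-related paralog of Cox7a2, by 0.26. The muscle form Cox6a2 was higher by 2.88 ± 0.55 (3.29 ± 0.40 without mice 82 and 95) and the testis form Cox6b2 by 1.42 ± 0.12. Cox7c was higher by 2.52 ± 0.14, read from a dim probe set with a mean of 6.35 over all arrays. The testis form Cox8c was lower by 0.47 ± 0.08, Cox4i2 was lower by 0.21 (not called without mice 82 and 95, adjusted p = 0.0614), and Cox7b2 was not called. For scale, the left-out brown fat and muscle isoforms Cox7a1 and Cox8b were higher by 5.82 ± 0.57 and 7.14 ± 0.29.

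ATP synthase held the member with the greatest deficit in brown adipose tissue. Of its 17 members, 14 were higher than in liver and 3 lower, with a median of 0.384, the smallest median among the complexes. The catalytic subunits Atp5a1 and Atp5b were higher by 0.61 and 0.54. Atp5g1, 1 of 3 genes that encode the same mature c subunit of the proton-driven rotor with different mitochondrial import sequences, ranged from 9.20 through a median of 11.16 to 12.51 in brown vehicle arrays, and from 13.18 through 13.42 to 13.50 in liver vehicle arrays. Every brown array lay below every liver array. The difference was -2.54 ± 0.28, or 0.172 times the liver signal (limma adjusted p = 2.88e-10), and -2.61 ± 0.28 without mice 82 and 95. The second c subunit gene, Atp5g2, was higher in brown adipose tissue by 0.50 ± 0.08, and the third, Atp5g3, was lower by 0.26 ± 0.05. Atp5j, a subunit of the stalk, was also lower (-0.22).

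**Figure D2:**
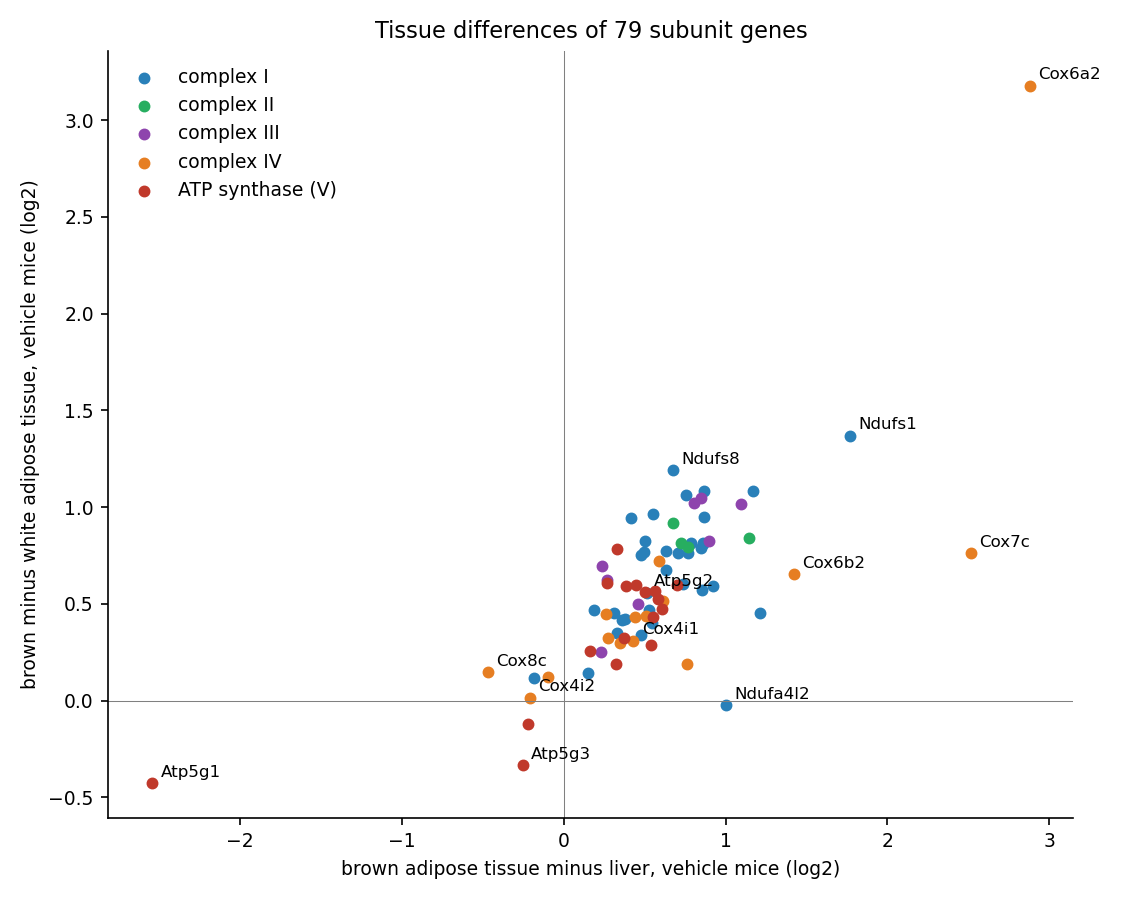
Difference in vehicle mice of brown adipose tissue minus liver (horizontal) and brown minus white adipose tissue (vertical), in log2 units, for the 79 genes coloured by complex. Most points lie above 0 on both axes, while Atp5g1 (-2.54 and -0.43) and Atp5g3 (-0.26 and -0.33) lie below 0 on both and Cox6a2 (2.88 and 3.18) lies farthest to the upper right.

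Against white adipose tissue, brown adipose tissue was higher for 70 of the 79 members and lower for 1 (28.8% of all genes were higher and 29.5% lower by the same call), with a median of 0.592 for the members and 0.047 for all genes. White and brown arrays come from different studies, so tissue and study cannot be told apart here. Leaving out mice 82 and 95 of the brown and the 4 white arrays with Ucp1 above 10 gave 73 higher, 1 lower and a median of 0.71. In that case all brown vehicle arrays lay above all white vehicle arrays in 70 members and below them in 1 (16.8% and 21.1% of all genes). With every vehicle array the groups overlapped in all 79, while 1.6% of all genes lay wholly higher and 3.6% wholly lower.

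The order of the complexes was close to that against liver. Complex I had 32 of 35 higher (median 0.752), complex II 4 of 4 (0.83), complex III 8 of 8 (0.761), complex IV 12 of 15 (0.434) and complex V 14 of 17 (0.474). Leading members were Cox6a2 (3.18 ± 0.70), Ndufs1 (1.37 ± 0.20), the iron-sulfur subunit Ndufs8 (1.19), Ndufa10 and Ndufv1 (1.08 each) and Ndufa8 (1.06). Among core subunits, Uqcrc1 differed by 1.05, Sdha by 0.84, Uqcrfs1 by 0.83, Sdhb by 0.82, Cox5a by 0.72, Atp5a1 by 0.47, Cox4i1 by 0.31 and Atp5b by 0.29, all called higher. Cox6b2 was higher by 0.65 ± 0.16 and Cox8a by 0.19. Cox4i2 (0.02), Ndufa4l2 (-0.02), Cox8c (0.15), Cox7b2 (0.12), Ndufb1 (0.12), Ndufa2 (0.14) and Atp5j (-0.12) were not called. Without the brown and white libraries that stood apart, Cox8c (0.20), Ndufb1 (0.17) and Ndufa2 (0.25) were called higher, Ndufa4l2 was 0.02, Ndufs1 was 1.62 ± 0.05 and Cox6a2 was 3.83 ± 0.61. The medians of complexes I to V were then 0.79, 0.985, 0.945, 0.521 and 0.549.

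The c subunit genes again differed among themselves. Atp5g3 was the member called lower in brown than in white adipose tissue (-0.33 ± 0.06, limma adjusted p = 6.4e-05), and it averaged 14.13 ± 0.11 in brown and 14.46 ± 0.07 in white vehicle arrays (n = 10 and 7). Atp5g2 was higher by 0.56. Atp5g1 differed by -0.43 ± 0.35 and was not called (adjusted p = 0.294), with brown arrays spread from 9.20 to 12.51 on both sides of the white range of 11 to 11.56. Over all tissues, the order for Atp5g1 was liver (13.41 ± 0.08), white (11.31 ± 0.18) and brown (10.86 ± 1.09), the last 2 not differing beyond their spread.

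**Figure D3:**
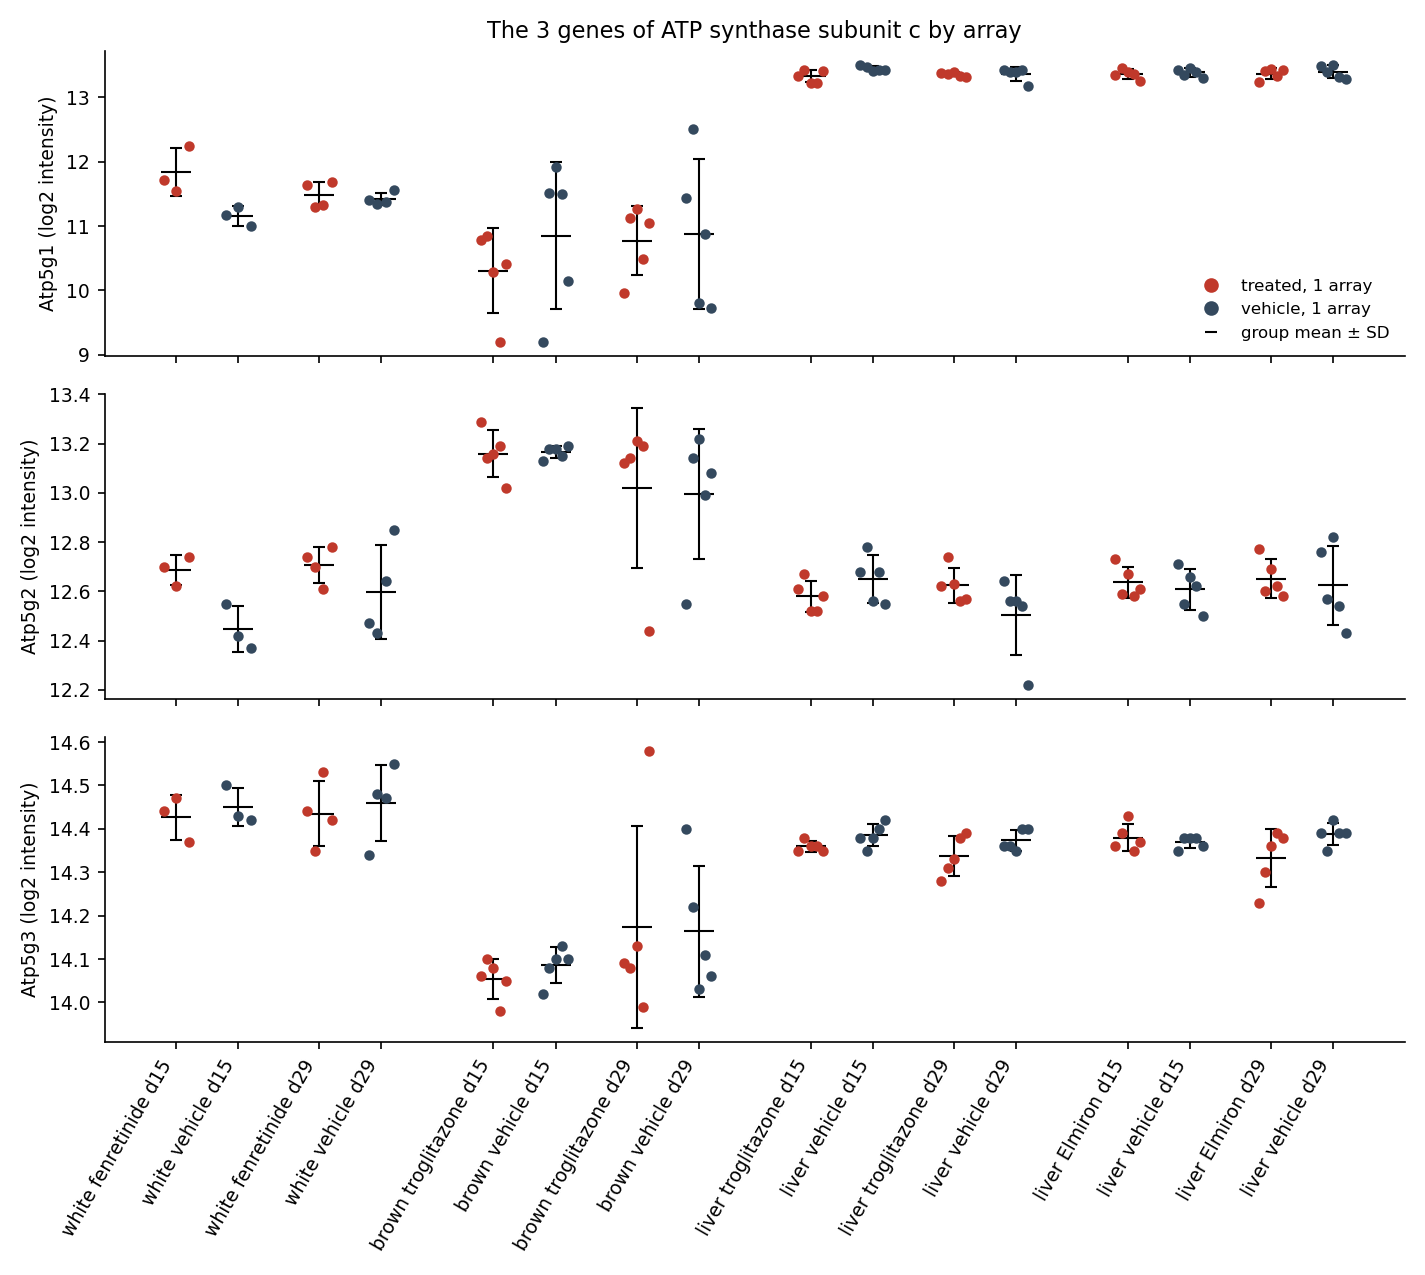
Log2 intensity of Atp5g1, Atp5g2 and Atp5g3 on each array by tissue, day and treatment (red, treated; dark, vehicle; treated left of vehicle), with the group mean ± SD. Atp5g1 lies between 13.18 and 13.51 in liver and spreads from 9.20 to 12.51 in brown adipose tissue, whereas Atp5g2 and Atp5g3 spread less, with brown troglitazone mouse 95 apart at 12.44 and 14.58 and liver vehicle mouse 88 apart at 12.22 for Atp5g2.

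The promoters of these 3 genes are shown because they encode 1 protein and differ between tissues, and that of Cox6b2 because it was called most often after treatment. Each sequence holds the 250 bases before the annotated start, from the RefSeq table of build GRCm38.p6, all on the minus strand and written 5′ to 3′. Capitals mark a match to a searched motif.
Atp5g1 (chr11:96075632-96075881): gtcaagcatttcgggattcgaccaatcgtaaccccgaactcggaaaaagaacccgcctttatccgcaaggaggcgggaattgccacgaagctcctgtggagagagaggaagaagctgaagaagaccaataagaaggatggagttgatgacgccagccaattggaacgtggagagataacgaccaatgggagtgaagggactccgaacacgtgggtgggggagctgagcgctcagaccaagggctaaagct
Atp5g2 (chr15:102671048-102671297): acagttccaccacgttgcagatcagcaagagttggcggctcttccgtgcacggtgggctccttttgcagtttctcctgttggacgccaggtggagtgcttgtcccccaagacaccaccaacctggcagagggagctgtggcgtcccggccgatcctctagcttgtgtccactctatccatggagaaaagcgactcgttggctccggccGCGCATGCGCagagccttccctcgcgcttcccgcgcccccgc
Atp5g3 (chr2:73911327-73911576): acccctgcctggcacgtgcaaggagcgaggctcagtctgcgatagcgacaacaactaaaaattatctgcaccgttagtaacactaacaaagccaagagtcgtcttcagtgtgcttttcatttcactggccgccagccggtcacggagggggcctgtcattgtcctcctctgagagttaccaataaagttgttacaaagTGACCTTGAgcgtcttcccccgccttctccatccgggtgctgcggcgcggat
Cox6b2 (chr7:4753095-4753344): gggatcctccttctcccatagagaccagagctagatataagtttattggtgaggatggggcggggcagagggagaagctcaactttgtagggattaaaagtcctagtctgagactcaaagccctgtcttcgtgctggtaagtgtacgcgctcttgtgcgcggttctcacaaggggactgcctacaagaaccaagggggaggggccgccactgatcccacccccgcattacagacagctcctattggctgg
In Atp5g2 the capitals are a match to the NRF1 motif (GCGCA, any base, GCGC), whose first base lies 42 bases before the start. In Atp5g3 they are the reverse complement of TCAAGGTCA, the motif of estrogen-related receptors, 52 bases before the start. NRF1 and the estrogen-related receptors are regulators of nuclear genes for mitochondrial proteins.

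Motifs were searched on both strands in the 250 bases before the start, in the 64 of 79 members with an entry. The NRF1 motif was found in 11 of them (17.2%) and in 4.2% of 27025 genes or 5.84% of the 17492 coding genes among them. The GABP motif CCGGAAG was found in 12 (18.8%), in 7.8% of all genes and in 10.17% of coding genes. TCAAGGTCA was found in Atp5g3 alone among the members (1.6%) and in 0.4% of all genes. The YY1 motif, the PPAR motif (AGGTCA repeated after 1 base) and the retinoic acid receptor motif (AGGTCA repeated after 5 bases) were in 0 of the 64 members, and in 0.2%, 0.0% and 0.0% of all genes. A match describes the letters of the window and is no evidence of binding.

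Within brown adipose tissue, Atp5g1 and Cox6a2 varied widely between mice of 1 group. Across the 18 brown arrays without mice 82 and 95, both followed the mean level of 12 skeletal muscle markers such as Acta1, skeletal muscle actin. At the lowest muscle marker level (9.65, troglitazone mouse 54 on day 15) Atp5g1 was 9.20 and Cox6a2 was 8.85, and at the highest (13.67, vehicle mouse 83 on day 29) they were 12.51 and 13.40. Cox7a1 stayed between 13.64 and 13.91 on the same arrays. Low and high arrays were found among both treated and vehicle mice.

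These 2 genes had the highest r with the muscle marker level among the 79 members, so their correlations are given as a description. For Atp5g1 r was 0.94 and rho was 0.98 (n = 18). Without the 2 arrays farthest from the median r was 0.98, and for deviations from the group means it was 0.94. Cox6a2 gave r = 0.98 and rho = 0.98, with r = 0.97 without the 2 farthest arrays and 0.98 within groups. As a description of the other members over the same arrays, r ran from -0.67 for Ndufa9 to 0.74 for Atp5g3. All 12 muscle markers were higher in brown than in white adipose tissue (median 4.55) and 11 of 12 were higher than in liver (median 5.14), with a level of 6.28 to 6.80 in liver. The part of muscle transcripts in the tissue differences of Cox6a2 and Atp5g1 was not tested.

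**Figure D4:**
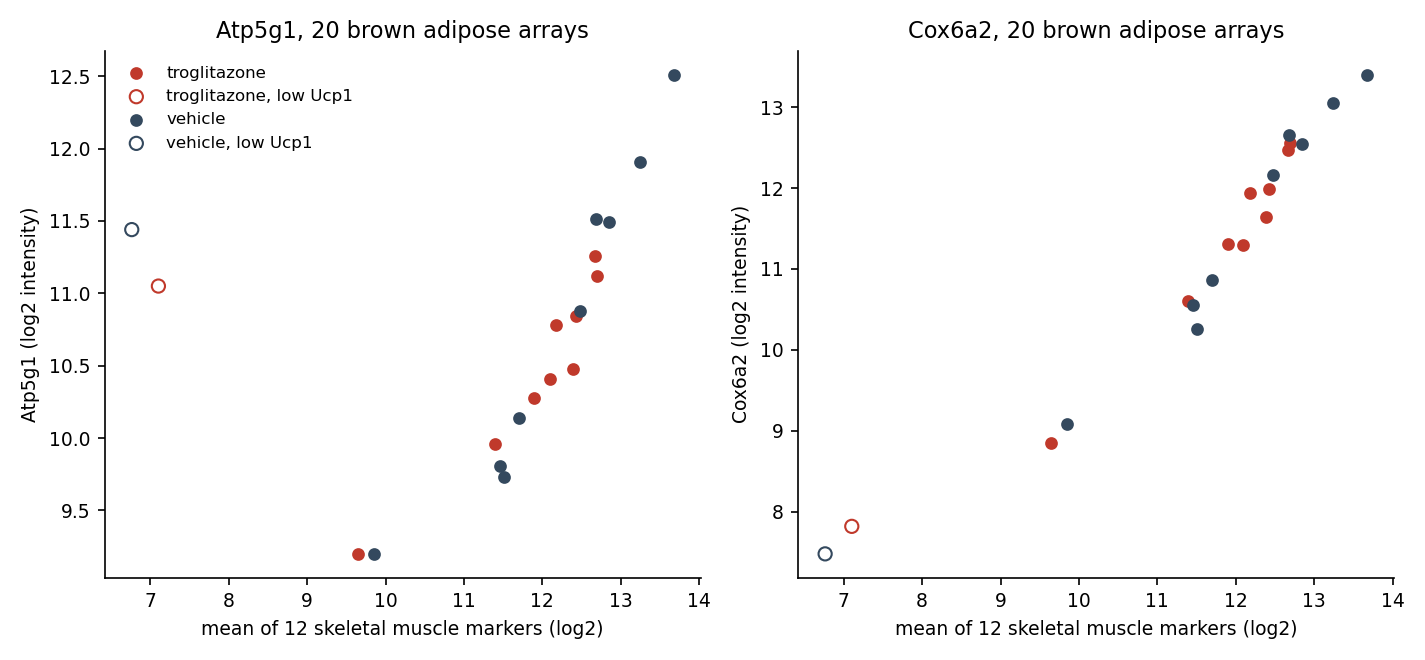
Log2 intensity of Atp5g1 and Cox6a2 (vertical) against the mean of 12 skeletal muscle markers (horizontal, log2) on the 20 brown adipose arrays, red for troglitazone and dark for vehicle. Open circles are the low-Ucp1 arrays of mice 95 and 82; over the other 18 arrays both genes climb with the marker level, from 9.20 to 12.51 for Atp5g1.

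In white adipose tissue on day 15, Cox6b2 and Atp5g1 were higher in fenretinide mice, and no other subunit was called. These were 2 of the 79 members called higher, with 0 called lower (3.27% of all genes were called higher and 0.682% lower, 3.95% in all). The members' median change was 0.007, with 41 above 0, and the median over all genes was -0.042. Treated and vehicle values did not overlap in 15 members (19%), while 27.9% of all genes had no overlap.

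Cox6b2, the testis form of the small complex IV subunit that faces the intermembrane space, was 9.0, 8.72 and 8.84 in the 3 fenretinide mice, against 7.14, 7.52 and 7.0 in the vehicle mice. Every treated mouse lay more than 1 unit above every vehicle mouse. It rose by 1.63 ± 0.21 (limma adjusted p = 6.09e-04), or 3.1-fold, and was called in all 6 fits that each left out 1 array, at an adjusted p of at most 0.00509. The general form Cox6b1 changed by 0.01 (95% interval -0.22 to 0.24). Of 8 other testis and sperm markers limma called 0, and their mean level was 5.55 to 5.93 in fenretinide and 5.66 to 5.83 in vehicle mice.

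Atp5g1 was 11.72, 11.54 and 12.25 in fenretinide mice, against 11.17, 11.30 and 11 in vehicle mice. The groups did not overlap, and mouse 59 was the highest. Atp5g1 rose by 0.68 ± 0.17 (limma adjusted p = 0.0398), or 1.6-fold, but was called in only 1 of the 6 fits that left out 1 array, with a highest adjusted p of 0.146. It was not called either when the 4 white arrays with Ucp1 above 10 on day 29 were dropped from the fit (adjusted p = 0.0843). Mouse 59 also had the highest muscle marker level, 7.95, against 6.74 and 6.73 in the other fenretinide mice and 6.94 to 7.06 in vehicle mice. On day 29, fenretinide mouse 93 had the highest muscle marker level of the white arrays, 11.17, and the lowest Atp5g1 of its group. The part of muscle transcripts in these Atp5g1 values was not tested. A second, dim probe set for the gene changed by 0.10.

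The other genes for the c subunit did not pass the test. Atp5g2 was 12.70, 12.62 and 12.74 in fenretinide mice and 12.55, 12.42 and 12.37 in vehicle mice, without overlap, a change of 0.24 ± 0.11 (adjusted p = 0.242). Atp5g3 changed by -0.02 (95% interval -0.20 to 0.15). Core subunits were not called, with changes from -0.15 for Sdha to 0.05 for Cox5a, and among them Ndufs1 changed by -0.02 (95% interval -0.41 to 0.37), Cox4i1 by 0.03 (-0.13 to 0.20) and Atp5b by -0.06 (-0.27 to 0.14).

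The epithelial transcripts in the same 3 treated libraries came with both called subunits. Of 12 epithelial markers, 9 were called higher, with a median change of 2.64, and Krt18, a keratin of simple epithelia, was 10.36, 10.70 and 10.90 in fenretinide and 6.53, 7.79 and 8.19 in vehicle mice. Their part in the rise of Cox6b2 and Atp5g1 was not tested.

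On day 29 Cox6b2 again exceeded its vehicle level in white adipose tissue after fenretinide. The epithelial marker level was 7.06 to 7.26 in fenretinide and 7.17 to 7.35 in vehicle mice, with 0 of 12 called. The part of other cell types in the Cox6b2 values of this day was not tested. Cox6b2 was 8.22, 8.07, 8.55 and 8.27 in the 4 fenretinide mice, against 7.78, 6.84, 7.28 and 7.13 in the vehicle mice. All treated values lay above all vehicle values. It rose by 1.02 ± 0.18 (limma adjusted p = 0.021), or 2.03-fold. With 1 array left out in turn it was called in 4 of 8 fits, with a highest adjusted p of 0.0632. Without the 4 arrays with Ucp1 above 10 the change was 1.10 ± 0.29, based on 2 mice per group, and was not called (adjusted p = 0.161).

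Cox6b2 was 1 of 79 members called on day 29, and it was called higher (0.412% of all genes were called higher and 0.929% lower, 1.34% in all). The median change of the members was 0.108, with 65 above 0, and that of all genes was -0.016. Without fenretinide mouse 93, the array with the highest Ucp1, the members' median was 0.035, and without all 4 arrays with Ucp1 above 10 it was 0.131, with 70 above 0. Groups did not overlap in 4 members (5.06%): Cox6b2, Sdha, and the accessory complex I subunits Ndufa1 and Ndufa7, while 8.75% of all genes had no overlap. Sdha was 13.54, 13.91, 13.59 and 13.57 in fenretinide mice, against 13.36, 13.39, 13.49 and 13.53 in vehicle mice, a change of 0.21 ± 0.09 that was not called (adjusted p = 0.312). Mouse 93 was the highest, and the lowest treated and highest vehicle values nearly met.

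Atp5g1 was not called on day 29. It was 11.63, 11.29, 11.33 and 11.68 in fenretinide mice and 11.40, 11.34, 11.38 and 11.56 in vehicle mice, and the groups overlapped. The change was 0.06 (95% interval -0.25 to 0.37). The test of day 29 against day 15 called 0 of 79 members (limma, 1.33% of all genes called, 0.0605% higher and 1.27% lower, 5 members at an unadjusted p below 0.05), with -0.62 ± 0.22 for Atp5g1 (adjusted p = 0.211) and -0.61 ± 0.28 for Cox6b2 (adjusted p = 0.31).

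Brown fat markers also had positive estimates in white adipose tissue on day 29. All 11 had changes above 0 (median 0.945, 0 called), with a mean level of 7.31 to 11.49 in fenretinide and 6.50 to 9.52 in vehicle mice. The left-out isoform Cox8b was 12.70, 14.07, 12.84 and 12.81 in fenretinide mice, against 11.12, 10.51, 12.63 and 12.64 in vehicle mice, a change of 1.38 ± 0.45 (adjusted p = 0.155). All treated values were above all vehicle values, and the vehicle mice formed a low pair without and a high pair with Ucp1 above 10. Over the 10 white arrays with Ucp1 below 10, the median level of the members and the brown fat marker level had r = 0.73 and rho = 0.68, with r = 0.46 without the 2 farthest arrays, as a description. Skeletal muscle markers had 10 of 12 changes above 0 (median 0.341, 0 called), with a level of 6.78 to 11.17 in fenretinide and 6.93 to 10.29 in vehicle mice. Hepatocyte markers had 11 of 12 above 0 (median 0.565, 0 called), with a level of 7.77 to 11.71 in fenretinide and 7.73 to 10.83 in vehicle mice. Without the arrays with Ucp1 above 10 the medians were 0.454 for brown fat, 0.008 for muscle and 2.271 for hepatocyte markers. The part of these cell types in the members' median was not tested.

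With troglitazone in brown adipose tissue, the largest estimate on both days was that of Cox6b2. On day 15 limma called 0 of 79 members (0.0605% of all genes were called, 0.0495% higher and 0.011% lower, and 1 member had an unadjusted p below 0.05). Cox6b2 was 8.64, 8.62, 8.44, 8.59 and 9.13 in troglitazone mice, against 8.48, 7.78, 7.87, 8.04 and 7.70 in vehicle mice. The groups overlapped only by the lowest treated value and the highest vehicle value. The change was 0.71 ± 0.21 (95% interval 0.27 to 1.15, adjusted p = 0.48).

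That fit shares its spread with the day 29 arrays, including mice 95 and 82. Without these 2 arrays the change of Cox6b2 on day 15 had an SE of 0.14 and it was called higher (1.63-fold, limma adjusted p = 0.0193), the only 1 of 79 members called (0.72% of all genes were called higher and 0.231% lower). In that fit the estimates for core subunits were 0.01 for Ndufs1, 0.04 for Cox4i1 and 0.11 ± 0.04 for Uqcrfs1 (adjusted p = 0.373), none called. Muscle markers had a median change of -0.485, with 1 of 12 above 0, beside estimates of -0.56 for Cox6a2 and -0.55 for Atp5g1, neither called. Among the members as a whole 66 changes lay above 0, with a median of 0.033, and 0.002 for all genes. Treated and vehicle values did not overlap in Ndufa8 and Ndufb5, accessory subunits of complex I (2.53% of members, 3.25% of all genes). Ndufb5 was 13.88, 13.89, 13.88, 13.92 and 13.92 in troglitazone mice and 13.88, 13.86, 13.83, 13.79 and 13.81 in vehicle mice, so these groups met at 13.88 to 2 decimals.

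On day 29 limma again called 0 of 79 members in brown adipose tissue (0.055% of all genes called, 0 members at an unadjusted p below 0.05). Cox6b2 was 8.30, 8.42, 8.42, 8.27 and, in mouse 95, 7.14 in troglitazone mice, against 7.75 (mouse 82), 7.59, 8.09, 7.75 and 7.87 in vehicle mice. Apart from mouse 95, all treated values lay above all vehicle values. The change was 0.30 ± 0.21 (adjusted p = 0.965), and 0.53 ± 0.16 without mice 95 and 82 (adjusted p = 0.115), when 0 of 79 members were called (0.588% of all genes higher and 0.5% lower). The members' median was 0.048 with all arrays and 0.019 without these 2, and it turned to -0.107 without mouse 82 alone. Brown fat's Cox7a1, Cox8b and Ucp1 were not called on either day in the fits with every array. Their SEs there were wide, 1.10, 0.55 and 1.49 on both days. The estimates were 0.07, 0.06 and 0.04 on day 15 and 0.30, 0.45 and 0.38 on day 29.

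**Figure D5:**
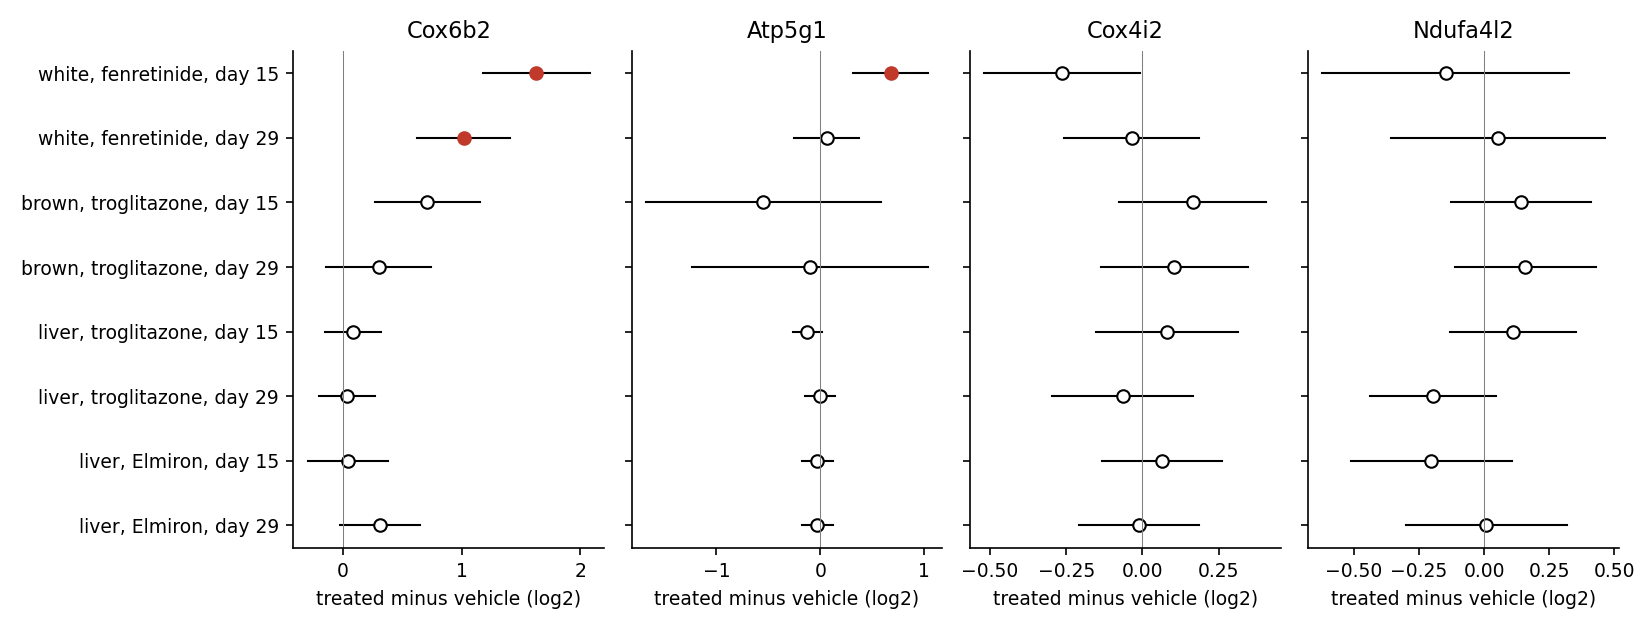
Change in log2 units, treated minus vehicle, with 95% intervals, of Cox6b2, Atp5g1, Cox4i2 and Ndufa4l2 in the 8 comparisons, from fits with every array. Filled red points are called; these are Cox6b2 (1.63 and 1.02) in white adipose tissue on both days and Atp5g1 (0.68) on day 15, and all intervals of Ndufa4l2 include 0.

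In liver, no subunit was called with troglitazone on either day. On day 15 limma called 0 of 79 members (0.022% of all genes called, 0 members at an unadjusted p below 0.05). Most estimates were slightly negative: 12 members lay above 0 and the median was -0.065, against -0.013 for all genes. On day 29, 64 lay above 0 with a median of 0.060, against 0.002 for all genes, with 0 called (0.115% of all genes called, 4 members at an unadjusted p below 0.05). The difference between days had a median of 0.132 and 0 called members (0% of all genes called, 5 members at an unadjusted p below 0.05).

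The largest single estimate in liver with troglitazone was 0.30, for Ndufb4 on day 29. Ndufv1 on day 15 was 13.01, 13.00, 12.88, 12.88 and 12.97 in troglitazone mice, against 13.03, 13.15, 13.07, 13.10 and 13.05 in vehicle mice. The groups did not overlap, as in 1 of 79 members and 2.09% of all genes, and the change of -0.14 was not called (adjusted p = 0.957). Ndufv2, the complex I subunit beside Ndufv1, was 13.22, 13.43, 13.24, 13.22 and 13.23 in troglitazone mice on day 29. In vehicle mice it was 13.09, 13.09, 13.14, 13.21 and, in mouse 88, 12.89. All treated values lay above the vehicle values, as in 1.07% of all genes, with a change of 0.18 ± 0.08 (adjusted p = 0.455). Core subunits changed by -0.11 (Sdha) to 0.05 (Cox4i1) on day 29.

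Genes for the mitochondrial ribosome, which translates the mitochondrially encoded subunits, had liver estimates of the same signs. With troglitazone, 1 of 75 ribosomal genes was above 0 on day 15 (median -0.132) and 73 of 75 on day 29 (median 0.187), with 0 called on either day. Assembly factors of the complexes did likewise, with 3 of 45 above 0 (median -0.114) and then 38 of 45 (0.177), 0 called. Over the 40 liver arrays the median of the members and that of the ribosomal genes had r = 0.88 and rho = 0.81, as a description. The median of the members and the array median over all genes had r = -0.08 and rho = -0.14 on the same arrays. Vehicle mouse 88 on day 29 was the lowest liver array, with a member median of -0.35, and without it the day 29 medians were 0.028 for the members (58 above 0), 0.094 for the ribosomal genes (61 of 75 above 0) and 0.076 for the assembly factors (32 of 45).

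With Elmiron, limma called 0 of 79 members on day 15 (0% of all genes called, 0 members at an unadjusted p below 0.05) and 0 on day 29 (0.0055% of all genes called, 1 member at an unadjusted p below 0.05). Medians were -0.028 and -0.037, against -0.005 and 0.014 for all genes, and 29 and 17 members lay above 0. Ndufb4, a small accessory subunit read from a dim probe set, had the largest estimate on day 29. It was 4.93, 5.29, 5.02, 5.06 and 4.82 in Elmiron mice, against 5.56, 5.61, 5.52, 5.24 and 5.06 in vehicle mice, a change of -0.38 ± 0.13 (adjusted p = 0.53), and the groups overlapped. Groups did not overlap in Sdhc on day 15 and in Uqcrfs1 on day 29 (1 of 79 each, 1.06% and 1.43% of all genes), with Uqcrfs1 at 12.85 to 12.98 in Elmiron and 12.99 to 13.06 in vehicle mice (-0.08, adjusted p = 0.694).

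Tests of whether one effect differed from another called no member. Troglitazone in brown adipose tissue minus liver gave 0 of 79 on day 15 (limma, 0.022% of all genes called, 2 members at an unadjusted p below 0.05) and 0 on day 29 (0.0165%, 0 members). Cox6b2 had the largest estimate on day 15 (0.62 ± 0.24, adjusted p = 1, and 0.248 without mice 95 and 82). Troglitazone minus Elmiron in liver gave 0 on day 15 (0.0055% of all genes called, 0 members at an unadjusted p below 0.05) and 0 on day 29 (0.0934%, 4 members), with Ndufb4 at 0.67 ± 0.19 (adjusted p = 0.19). The changes with day in brown adipose tissue and in Elmiron livers also gave 0 of 79 (0% of all genes called in each, 0 and 1 members at an unadjusted p below 0.05).

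The subunits tied to hypoxia bear on the study's question and were called with none of the compounds on either day (8 comparisons). Cox4i2 and Ndufa4l2 were each read from 1 probe set, a dim one for Cox4i2 with a mean of 6.93 over all arrays. Cox4i2, the alternative of Cox4i1, was nearest in white adipose tissue on day 15 with fenretinide (-0.26, 95% interval -0.52 to -0.01, adjusted p = 0.242), and on day 29 it changed by -0.04 (-0.26 to 0.19). In brown adipose tissue on day 15 it changed by 0.17 (-0.08 to 0.41) with troglitazone. Ndufa4l2 changed by -0.15 (-0.62 to 0.33) and 0.05 (-0.36 to 0.46) in white and by 0.14 (-0.13 to 0.41) in brown adipose tissue on day 15. In brown adipose tissue on day 29 Cox4i2 changed by 0.11 (-0.14 to 0.35) and Ndufa4l2 by 0.16 (-0.11 to 0.43), and by 0.004 and -0.015 without mice 95 and 82. The effect of troglitazone on Ndufa4l2 in brown adipose tissue minus liver on day 29 was 0.35 ± 0.18 (adjusted p = 0.926), the largest estimate among the members in that test, and 0.18 ± 0.16 without those mice. In liver both genes changed by no more than 0.20 in either direction.

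Genes that build, supply and regulate the chain were described from lists of 45 assembly factors, 29 biogenesis regulators, 22 citrate cycle enzymes, 32 carriers and electron shuttles and 75 mitochondrial ribosome genes. After fenretinide on day 15, 2 of 32 carriers rose and 1 of 45 assembly factors fell in white adipose tissue, where 3.27% of all genes were called higher and 0.682% lower. Slc25a12, an aspartate-glutamate carrier, rose by 1.06 ± 0.18 (limma adjusted p = 0.00506), and Atpif1, the inhibitory protein of ATP synthase, by 1.06 ± 0.20 (adjusted p = 0.0092). The assembly factor Nubpl, which delivers iron-sulfur clusters to complex I, fell by 0.34 (adjusted p = 0.0278, and 0.0514 without the day 29 arrays with Ucp1 above 10). The epithelial markers were higher in the same libraries, and their part was not tested.

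On day 29 in white adipose tissue the citrate cycle gene Suclg2, a subunit of succinyl-CoA synthetase, rose by 0.45 ± 0.09 (adjusted p = 0.0323), and Pdk3, a kinase that inhibits pyruvate dehydrogenase, fell by 0.56 ± 0.12 (adjusted p = 0.0393). These were 1 of 22 in each direction, where 0.412% of all genes were called higher and 0.929% lower. Without the arrays with Ucp1 above 10 neither was called (0.50 ± 0.11, adjusted p = 0.109 for Suclg2, and -0.71, adjusted p = 0.0928 for Pdk3). Between days, the effect on Slc25a12 was lower on day 29 (-1.21 ± 0.24, adjusted p = 0.0271) and that on Suclg2 higher (0.59 ± 0.13, adjusted p = 0.0474). Without those arrays Slc25a12 remained called (-1.56, adjusted p = 0.0109) and Suclg2 was not (adjusted p = 0.102). In the 6 comparisons with troglitazone or Elmiron, limma called 0 genes of these 5 lists.

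Between tissues, most genes of the same lists were higher in brown adipose tissue. Relative to liver, brown adipose tissue was higher for 21 of 22 citrate cycle and pyruvate genes (median 1.411), 26 of 32 carriers (0.797), 34 of 45 assembly factors (0.501), 43 of 75 ribosomal genes (0.301) and 15 of 29 regulators (0.23). It was lower for 1, 4, 4, 7 and 7, where 31.6% of all genes were called higher and 44.5% lower. Relative to white adipose tissue it was higher for 20, 25, 41, 65 and 17 (medians 0.986, 0.642, 0.638, 0.506 and 0.374) and lower for 2, 3, 1, 3 and 7, where 28.8% of all genes were called higher and 29.5% lower. Without mice 82 and 95 the counts higher than liver were 21, 27, 36, 55 and 16, and without all libraries that stood apart those higher than white adipose tissue were 20, 26, 43, 71 and 18. Ogdh, of the oxoglutarate dehydrogenase complex, was higher than in liver by 2.73 ± 0.21, Idh3a of isocitrate dehydrogenase by 3.13 and the pyruvate dehydrogenase kinase gene Pdk4 by 6.64. The adenine nucleotide carrier Slc25a4 was higher by 5.81 ± 0.10, the assembly factor of ATP synthase Atpaf2 by 2.14, and the receptor gene Pparg by 4.76. Slc25a13, the liver form of the aspartate-glutamate carrier, was lower by 5.02 and the copper-handling factor Sco2 by 1.93. Atpif1, chosen after its values were seen, was lower in brown adipose tissue than in liver (-1.14) and than in white adipose tissue (-1.50).

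Other probe sets of the members were compared with the brightest ones. Of 83 such probe sets, 73 had the same sign of the brown minus liver difference and 79 the same sign of the brown minus white difference, with mouse 82 left out. Cox6b2, Atp5g3 and Ndufs1 have 1 single-symbol probe set each, so their values have no such check. The second probe set of Cox6a2 differed by 2.72 between brown adipose tissue and liver, beside 3.29 for the one used. That of Atp5g1, dim with a mean of 4.21 over all arrays, differed by -0.07, beside -2.61 for the one used. The other probe sets of Atp5g2, with means of 6.1 and 4.31, differed by 1.31 and -0.02, beside 0.56.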

How the data were processed

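RNA was measured on 74 Affymetrix arrays of 16 groups. The deposited table holds linear intensity values, which the authors made with RMA from biotin-labelled cRNA, per the labels and the submitters' processing notes, and the RMA version is not given in the sources used here. They ran from 7.44 to 39426 and were taken to log2; array medians were 7.71 to 8.05. Of 45101 probe sets, 34945 carry 1 gene symbol in the platform annotation, 932 several and 9160 none, and 64 are controls. The brightest single-symbol probe set per gene gave 18193 genes. The number of arrays limits the precision.

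Treated minus vehicle differences were fitted with limma (lmFit and eBayes, version 3.58.1, R 4.3.3) in 1 fit of 4 groups per tissue and study. The p-values were adjusted over all genes, and these fits were tested on simulated data. Tests between tissues or compounds used 1 fit of all groups of both sides. Tissue contrasts compared the vehicle mice, with the treated arrays of that fit adding to its spread. Labels give no litter or culture, so p-values measure the spread between these animals. Mice with both tissues were 15, and their brown and liver deviations correlated between -0.135 and 0.151. Within groups the lowest correlation of 138 pairs of arrays was 0.905, and 0 pairs were identical. Named were called members with the largest changes, 10 core subunits, isoform sets, the extremes of each tissue contrast and up to 3 called genes per pathway list; members and lists were chosen with earlier results of these data known. Alternatives were other normalizations, filters, fits and left-out libraries. Promoters came from a RefSeq table of GRCm38.p6. Figures were drawn with matplotlib 3.10.9.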

Additional observations from a re-analysis of the deposited data

Results flagged for a closer look

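In groups of 4 or 5 arrays, the array farthest from the rest was tested for 8 quantities, and 16 of 112 tests stood out, where chance gives about 1 in 20. The median of the 79 subunits was -0.15 in brown adipose tissue of troglitazone mouse 95 on day 29 (others 0.48 to 0.50), -0.31 in vehicle mouse 82 (others 0.45 to 0.49), 0.17 in white adipose tissue of fenretinide mouse 93 (others -0.10 to -0.08) and -0.35 in liver of vehicle mouse 88 of the troglitazone study (others -0.18 to -0.13). Mouse 95 accounted for 4 of the 16, with Atp5g2 at 12.44, Atp5g3 at 14.58 and Cox6b2 at 7.14. Liver of mouse 88 also had Atp5g1 at 13.18, Atp5g2 at 12.22 and Cox6b2 at 6.85.

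Single values stood out elsewhere. In brown adipose tissue on day 15 with troglitazone, Cox6a2 was 8.85 in mouse 54 (others 11.30 to 11.99), Cox6b2 was 9.13 in mouse 55 (others 8.44 to 8.64) and Cox4i2 was 6.82 in mouse 51 (others 7.03 to 7.07). In liver, Atp5g3 was 14.38 in troglitazone mouse 53 on day 15 (others 14.35 to 14.36). In Elmiron livers on day 29, Cox6b2 was 6.49 in mouse 92 (others 6.78 to 6.87) and Cox4i2 was 6.73 in mouse 93 (others 7.02 to 7.09). The array of mouse 92 also had a brown fat marker level of 8.41 (others 7.46 to 7.60). Its level of white and general adipocyte markers was 8.30 (others 7.70 to 7.74).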

How the results depend on the processing

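Between brown adipose tissue and liver 73 to 78 members were called (67 to 72 higher and 4 to 6 lower), and between brown and white 70 to 75 (69 to 74 higher and 1 to 2 lower), under the alternatives run, with 75 to 78 and 71 to 74 when 1 array was left out. With fenretinide on day 15, 1 member in place of 2 was called when the dimmer 50% of genes were dropped, which removes Cox6b2 itself. The count was also 1 when probe sets were averaged and when the 2 groups were fitted alone. The same count came without the day 29 white arrays with Ucp1 above 10. Leaving out 1 array gave 1 to 2, with 1 without vehicle mouse 48, 49 or 50 or fenretinide mouse 57 or 59. On day 29, 0 in place of 1 were called with the dim genes dropped, which removes Cox6b2 itself, with the 2 groups alone, without mice 93 and 85, and without the arrays with Ucp1 above 10; leaving out 1 array gave 0 to 1, with 0 without vehicle mouse 85 or fenretinide mouse 94 or 95. Array weights gave 1 in place of 0 for troglitazone in brown adipose tissue on day 15, for that effect minus liver, and for troglitazone minus Elmiron on day 29; leaving out brown mice 95 and 82 also gave 1 for the first. For the array weights the cause was not tested. In all other comparisons leaving out 1 array gave 0. With the animal as a replicate block, 78 members were called between brown adipose tissue and liver and 0 in each test of troglitazone between these tissues, so the pairing changed no call count. Settings that leave out brown mice 95 and 82, liver mouse 88 together with its list medians, or the arrays with Ucp1 above 10 were chosen after seeing the data. Dim probe sets (Cox7c, Ndufb4, Cox7b2, Cox4i2, Cox6b2) have mean signals below the median gene.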
